A study of Mus musculus with 4 samples.

Results

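Antiviral interferon-stimulated effector genes were examined in RNA-seq of lineage-negative bone marrow, the fraction left after magnetic removal of mature blood cells and enriched for stem and progenitor cells. The 40 genes were listed by symbol with earlier results of these data known, and all 40 were matched among 22520 genes in the tables. The groups were Cyba-KO, from 2 mice of genotype Cyba-/-, and WT, from 2 mice of genotype wild type, all C57BL/6 with no treatment named. Cyba encodes a membrane subunit of the NADPH oxidases that make superoxide, and how the allele was made, the sex and the age of the mice are not stated in the labels. The comparison asks how these genes differ between marrow progenitors with and without Cyba.

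Interferons act through surface receptors and JAK kinases that switch on transcription factors, which bind a short DNA element in front of many genes. The products of these genes sense foreign nucleic acid, stop translation, block entry and replication of viruses, or mark proteins with the ubiquitin-like protein ISG15. In haematopoietic stem and progenitor cells, interferon is known to change cycling and lineage output, and part of this gene set is on without infection.

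Depth was 23052723 and 22867913 reads in the Cyba-KO libraries, against 23664766 and 22414446 reads in the WT libraries, after repair of lost decimal points in the tables. The deleted gene had 28 and 32 reads in Cyba-KO libraries, against 1347 and 875 reads in WT libraries, so each library matched its label. Kit, a receptor that marks progenitors, had 222 and 290 CPM (counts scaled to the TMM-adjusted library size) in Cyba-KO libraries, against 266 and 301 CPM in WT libraries. Markers of mature cells were present in every library, as given below. In bulk RNA, fewer cells of a type and less RNA per cell cannot be told apart. Each library is 1 mouse, and with 2 mice a group an exact two-sided permutation test cannot go below p = 0.333.

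As a group the antiviral genes stood higher in the Cyba-KO libraries, with no member past the main test. The members took 0.306% and 0.298% of all reads in Cyba-KO libraries, against 0.247% and 0.222% in WT libraries, and without Ly6e, the most abundant, 0.193% and 0.199% against 0.153% and 0.151%. Readings were settled for 37 members, and all 37 entered the test. Of them 35 had a log2 fold change (Cyba-KO over WT) above 0, where 49% of the 13743 tested genes did. For 28 of 37, both Cyba-KO libraries lay above both WT libraries, where 17.6% of all tested genes did, and no member lay the other way round. The median log2 fold change was 0.51 over the 37 members and -0.01 over all tested genes. Ifit3b passed the expression filter only through the Cyba-KO libraries, and without it 34 of 36 members were above 0, 27 of 36 had both Cyba-KO libraries above both WT libraries and the median was 0.49. The list was made with these data known, so its direction is no independent result.

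No member passed the edgeR quasi-likelihood test at a Benjamini-Hochberg adjusted p of 0.05, and neither did any other gene, so the share called was 0%. The smallest adjusted p among members was 0.842. At an unadjusted p of 0.05, edgeR's quasi-likelihood test placed 15 members higher and 0 lower, where 2.77% of all tested genes were higher, and without Ifit3b 14 members were higher. DESeq2, the other count test, called 26 genes higher among 13210 with an adjusted p (0.197%) and 1 lower, and a single member, Ifi27l2a, was among those higher. Even Cyba, with a log2 fold change of -5.19 (SE 0.28), had an edgeR adjusted p of 0.288, against 8.82e-44 with DESeq2. The words higher and lower below therefore describe these 4 libraries.

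**Figure D1:**
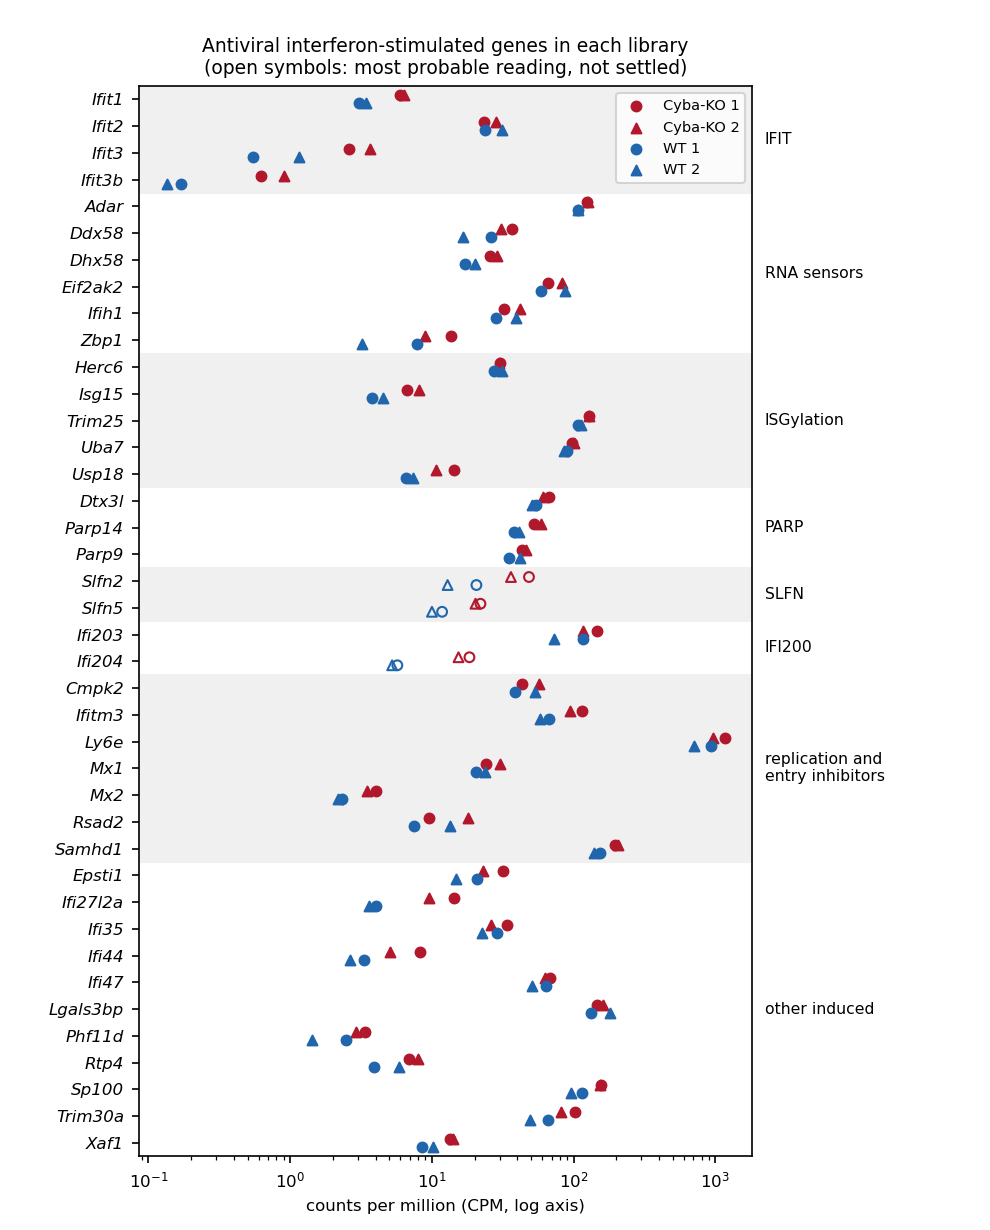
Level of each of the 40 members in each library, in CPM on a log axis, grouped by function, with Cyba-KO in red and WT in blue and circles and triangles for replicates 1 and 2. For 28 of the 37 settled members both red symbols lie to the right of both blue ones.

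The IFIT proteins bind viral RNA and block its translation, and 3 of this class of 4 had both Cyba-KO libraries above both WT libraries, where 17.6% of all tested genes did. Ifit3 (GRCm38 chromosome 19, 34583531 to 34588731, plus strand) had 58 and 85 reads in Cyba-KO libraries, against 13 and 26 reads in WT libraries. That is 2.58 and 3.64 CPM against 0.548 and 1.16 CPM, with no overlap, a log2 fold change of 1.86 (SE 0.48, edgeR unadjusted p = 0.0143). Ifit3b, its neighbour on chromosome 19 (34607970 to 34613401), had 14 and 21 reads in Cyba-KO libraries and 4 and 3 reads in WT libraries, and its fitted log2 fold change of 2.29 rests on these few reads. The coding sequences of Ifit3 and Ifit3b are 99.1% identical over 1209 bases, so how reads were split between them is uncertain. Ifit3b, among the 3 counted above, passed the expression filter only through the Cyba-KO libraries, so that count rests partly on the filter. The other members counted are Ifit1 and Ifit3. Without Ifit3b the class median was 0.92. Ifit1, which binds RNA that lacks the methylated cap of the host, had 5.93 and 6.33 CPM in Cyba-KO libraries and 3.04 and 3.44 CPM in WT libraries (log2 fold change 0.92, SE 0.24, edgeR unadjusted p = 0.015). Ifit2 did not share this pattern. It was the most abundant of the 4 by reads, with 23.3 and 28.2 CPM in Cyba-KO libraries against 23.7 and 31.4 CPM in WT libraries, so the genotypes overlapped and the log2 fold change was -0.10 (SE 0.21).

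The promoter stretches of 3 IFIT genes and of 2 further members, Isg15 and Rsad2, are shown because they hold the element through which interferon acts, and because the genes differ in their values. Capitals mark matches to the core of the interferon-stimulated response element, written as GAAA, any 2 bases, GAAA, on either strand. The stretches come from RefSeq promoter windows of build GRCm38.p6 and run 5′ to 3′ on the strand of the gene. Ifit1 lies at chr19:34640760-34640838 (plus strand), Ifit3 at chr19:34583348-34583441 (plus strand) and Ifit3b at chr19:34607744-34607837 (plus strand), Isg15 at chr4:156200850-156200921 (minus strand) and Rsad2 at chr12:26456538-26456597 (minus strand).
Ifit1: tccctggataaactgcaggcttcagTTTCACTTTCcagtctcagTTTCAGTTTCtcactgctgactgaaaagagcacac
Ifit3: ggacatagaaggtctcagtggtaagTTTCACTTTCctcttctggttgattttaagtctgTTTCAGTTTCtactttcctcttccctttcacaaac
Ifit3b: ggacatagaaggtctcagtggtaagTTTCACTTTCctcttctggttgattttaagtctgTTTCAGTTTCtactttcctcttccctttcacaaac
Isg15: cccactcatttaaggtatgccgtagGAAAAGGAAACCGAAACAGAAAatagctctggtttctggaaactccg
Rsad2: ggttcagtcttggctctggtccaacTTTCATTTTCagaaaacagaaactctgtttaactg

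The Ifit3 and Ifit3b stretches differ at 0 of 94 bases, and the matches lie 32 bases further from the start in Ifit3b. The first match begins 104 bases upstream of the start of transcription in Ifit1, 156 in Ifit3, 188 in Ifit3b, 78 in Isg15 and 120 in Rsad2. Isg15 holds 3 matches that overlap each other, Ifit1, Ifit3 and Ifit3b hold 2 each and Rsad2 holds 1.

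RefSeq windows of 300 bases, from 250 before to 50 after a start, were matched for 29 of the 40 members. The element was found in 12 of these 29 genes (41.4%), against 3.99% of 27025 genes with a window. The gamma-activated site, TTCNNNGAA, which reads the same on both strands, was found in 6 of 29 members (20.7%) and in 9.55% of all genes with a window. Among tested members with a window, the 11 with the response element had a median log2 fold change of 0.68. Without Ifit3b, whose promoter stretch is that of Ifit3, the other 10 had a median of 0.67 and ranged from 0.02 (Eif2ak2) to 1.86 (Ifit3). The 16 without a match had a median of 0.23 and ranged from -0.10 (Ifit2) to 1.17 (Ifi44). Both Cyba-KO libraries lay above both WT libraries for 8 of the 11, or 7 of the 10 without Ifit3b, and for 10 of the 16. Over all tested genes that share was 17.6%. These shares are descriptions, and a window with no match says only that these letters are not in it.

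**Figure D2:**
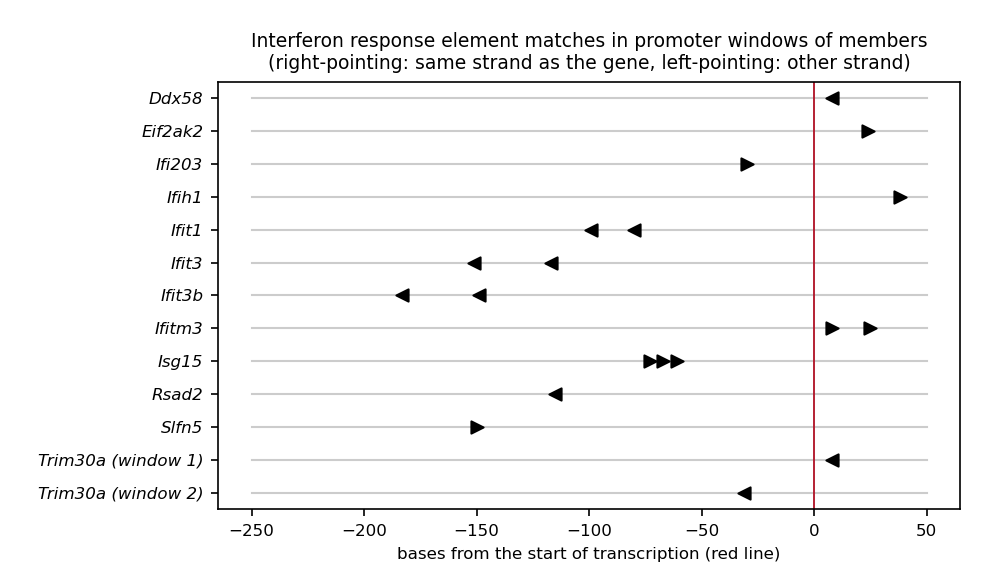
Matches to the response element core in 13 promoter windows of 12 members, by distance in bases from the start of transcription (red line), with right-pointing symbols for the strand of the gene and left-pointing ones for the other strand. Matches lie upstream in Ifit1, Ifit3, Ifit3b, Isg15, Rsad2, Slfn5 and Ifi203, after the start in Ddx58, Eif2ak2, Ifih1 and Ifitm3, and on either side of a start in the windows of Trim30a.

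Sensors of foreign nucleic acid formed a class of 6 with a median log2 fold change of 0.39. Zbp1, which binds Z-form nucleic acid and can start necroptosis, had 13.7 and 8.98 CPM in Cyba-KO libraries, against 7.8 and 3.21 CPM in WT libraries. Both Cyba-KO values were the higher ones, but the WT libraries themselves differed more than 2-fold and the log2 fold change of 1.04 had an SE of 0.50. It was 1.82 without WT replicate 1 and 0.54 without WT replicate 2. Ddx58, the gene of the RNA sensor RIG-I, had 36.8 and 30.6 CPM in Cyba-KO libraries and 26.1 and 16.6 CPM in WT libraries (log2 fold change 0.66, SE 0.26, with 1.03 without WT replicate 1 and 0.37 without WT replicate 2). Dhx58, which encodes LGP2, a helper of the other helicase sensors, had 25.9 and 29 CPM in Cyba-KO libraries and 17.1 and 20.2 CPM in WT libraries. Its log2 fold change of 0.56 (SE 0.16, edgeR unadjusted p = 0.023) was the most precise of the 3 helicases. Ifih1, the gene of the long double-stranded RNA sensor MDA5, overlapped between genotypes at 32.4 and 41.9 CPM in Cyba-KO libraries against 28.3 and 39.4 CPM in WT libraries.

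The kinase gene Eif2ak2, whose product PKR stops translation on binding double-stranded RNA, was level at 65.6 and 82.1 CPM in Cyba-KO libraries and 59 and 86.2 CPM in WT libraries (log2 fold change 0.02, SE 0.24). Adar edits double-stranded RNA and keeps the sensors from reacting to the cell's own transcripts. It had 124 and 126 CPM in Cyba-KO libraries, against 108 and 107 CPM in WT libraries, a small difference (log2 fold change 0.22, SE 0.11) with tight replicates. Of the 6 sensors, Ifih1 and Eif2ak2 were those whose genotypes overlapped. For the other 4, both Cyba-KO libraries lay above both WT libraries, where 17.6% of all tested genes did.

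The ISG15 pathway attaches a ubiquitin-like tag to proteins, and its members split into the tag and its protease, with larger fold changes, and the attaching enzymes, with smaller ones. Isg15, the tag, had 149 and 189 reads in Cyba-KO libraries and 90 and 101 reads in WT libraries. At 6.64 and 8.09 CPM against 3.8 and 4.51 CPM the genotypes did not overlap (log2 fold change 0.83, SE 0.25, edgeR unadjusted p = 0.0251). Usp18 removes the tag and also restrains the type I interferon receptor. It had 14.2 and 10.7 CPM in Cyba-KO libraries, against 6.58 and 7.32 CPM in WT libraries (log2 fold change 0.84, SE 0.23, edgeR unadjusted p = 0.019).

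The activating enzyme Uba7 had 97.3 and 100 CPM in Cyba-KO libraries and 90.3 and 86 CPM in WT libraries, a log2 fold change of 0.17 (SE 0.11). Trim25, a ubiquitin ligase that acts on RIG-I, had 129 CPM in both Cyba-KO libraries, against 107 and 112 CPM in WT libraries (log2 fold change 0.24, SE 0.11). Herc6, the main ISG15 ligase of the mouse, overlapped at 30.2 and 29.5 CPM in Cyba-KO libraries against 27.3 and 31.3 CPM in WT libraries. The median of the class was 0.24.

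The ADP-ribosyltransferase genes and the ligase gene Dtx3l, whose product works in a complex with PARP9, had a class median of 0.29. For 3 of 3 both Cyba-KO libraries lay above both WT libraries, where 17.6% of all tested genes did. Parp14, which adds single ADP-ribose units to proteins, had 52.6 and 59.2 CPM in Cyba-KO libraries and 37.7 and 40.9 CPM in WT libraries (log2 fold change 0.51, SE 0.13, edgeR unadjusted p = 0.0143). Dtx3l had 67.5 and 61 CPM in Cyba-KO libraries, against 54.2 and 50.7 CPM in WT libraries (log2 fold change 0.29, SE 0.12). For Parp9 the values were 43 and 46 CPM in Cyba-KO libraries and 35.1 and 41.9 CPM in WT libraries (log2 fold change 0.21, SE 0.15). Parp9 and Dtx3l lie head to head and share 9.4% and 8% of their exonic bases with each other, so some reads could belong to either.

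Among genes whose products block entry or replication, 7 were tested and the median log2 fold change was 0.39. Ifitm3 stops viruses from fusing with endosomes, and at 198 TPM (a level scaled to transcript length) in Cyba-KO libraries and 123 TPM in WT libraries on average it was the member with the highest level after Ly6e. It had 114 and 94.9 CPM in Cyba-KO libraries, against 67.5 and 57.6 CPM in WT libraries, with no overlap. Its log2 fold change of 0.74 had an SE of 0.16 and an edgeR unadjusted p of 0.00701. Samhd1, which depletes the nucleotides that reverse transcription needs, had 196 and 205 CPM in Cyba-KO libraries and 153 and 139 CPM in WT libraries (log2 fold change 0.46, SE 0.12, edgeR unadjusted p = 0.0143). Ly6e, a surface protein that limits the entry of some viruses, was by far the most abundant member at 1160 and 1130 TPM in Cyba-KO libraries, against 1020 and 816 TPM in WT libraries. In CPM its values were 1160 and 970 against 939 and 708, so WT replicate 1 came close to Cyba-KO replicate 2 (log2 fold change 0.37, SE 0.21). Without WT replicate 1 it was 0.60 and without WT replicate 2 it was 0.18.

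The Mx genes encode dynamin-like GTPases, and laboratory strains such as C57BL/6 are known to carry defective alleles of them. Mx1 had 24.1 and 30.2 CPM in Cyba-KO libraries and 20.5 and 23.6 CPM in WT libraries (log2 fold change 0.30, SE 0.18). Mx2, annotated in GENCODE vM21 as a polymorphic pseudogene, had 90 and 81 reads in Cyba-KO libraries and 55 and 49 reads in WT libraries (log2 fold change 0.73, SE 0.27, edgeR unadjusted p = 0.0466). Rsad2, whose product viperin makes a chain-terminating nucleotide, had 9.53 and 17.9 CPM in Cyba-KO libraries, against 7.42 and 13.5 CPM in WT libraries. Its neighbour Cmpk2, a mitochondrial nucleotide kinase gene, had 43.4 and 56.6 CPM in Cyba-KO libraries and 38.8 and 53.2 CPM in WT libraries. For both genes of this pair on chromosome 12, replicate 2 was the higher library in each genotype and the genotypes overlapped.

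The remaining 11 induced genes had the median 0.61, and the clearest single difference of the list was among them. For 8 of the 11, both Cyba-KO libraries lay above both WT libraries, where 17.6% of all tested genes did. Ifi27l2a, a small hydrophobic protein of the IFI27 family strongly induced by interferon, had 318 and 222 reads in Cyba-KO libraries and 96 and 80 reads in WT libraries. At 14.2 and 9.5 CPM against 4.05 and 3.57 CPM the libraries were well apart, a log2 fold change of 1.63 (SE 0.29, edgeR unadjusted p = 0.00341, adjusted p = 0.842). With DESeq2 the log2 fold change was 1.63 (SE 0.38) and the adjusted p was 0.0142, the only call among members by that tool. Ifi44, a GTPase-like antiviral protein, had 8.24 and 5.09 CPM in Cyba-KO libraries, against 3.29 and 2.63 CPM in WT libraries (log2 fold change 1.17, SE 0.35, edgeR unadjusted p = 0.0235).

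Trim30a, a regulator of inflammatory signalling, had 103 and 80.8 CPM in Cyba-KO libraries and 66 and 49 CPM in WT libraries (log2 fold change 0.68, SE 0.21, edgeR unadjusted p = 0.0288). Sp100, a component of nuclear bodies that silences viral genomes, had 155 and 153 CPM in Cyba-KO libraries, against 115 and 95.3 CPM in WT libraries (log2 fold change 0.55, SE 0.14, edgeR unadjusted p = 0.0138). Xaf1, a promoter of cell death, had 13.4 and 14 CPM in Cyba-KO libraries and 8.52 and 10.2 CPM in WT libraries (log2 fold change 0.55, SE 0.19, edgeR unadjusted p = 0.0394). None of these 3 overlapped between genotypes.

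Rtp4, which helps receptors reach the cell surface, had 6.91 and 8 CPM in Cyba-KO libraries and 3.88 and 5.89 CPM in WT libraries (log2 fold change 0.61, SE 0.30). Epsti1 had 31.7 and 22.9 CPM in Cyba-KO libraries, against 20.9 and 14.9 CPM in WT libraries (log2 fold change 0.61, SE 0.26). Phf11d, a PHD finger gene, had 76 and 68 reads in Cyba-KO libraries and 59 and 32 reads in WT libraries (log2 fold change 0.68, SE 0.38, with 1.14 without WT replicate 1 and 0.34 without WT replicate 2). In these 3 the genotypes did not overlap, but the SE was at least 0.26 and no unadjusted edgeR p was below 0.05.

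The other members of the class overlapped between genotypes. Lgals3bp, a secreted glycoprotein at 86.7 TPM in Cyba-KO libraries and 90.6 TPM in WT libraries on average, had 146 and 162 CPM in Cyba-KO libraries, against 133 and 181 CPM in WT libraries (log2 fold change -0.02, SE 0.19). Ifi35 had 34 and 26.1 CPM in Cyba-KO libraries and 28.8 and 22.6 CPM in WT libraries. Ifi47, an immunity-related GTPase, had 68.3 and 62.5 CPM in Cyba-KO libraries, against 64.2 and 50.6 CPM in WT libraries. Sp100, at 94.3 TPM in Cyba-KO libraries and 65.1 TPM in WT libraries, and Samhd1, whose TPM readings were not settled, complete the 5 most abundant members with Ly6e, Ifitm3 and Lgals3bp.

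**Figure D3:**
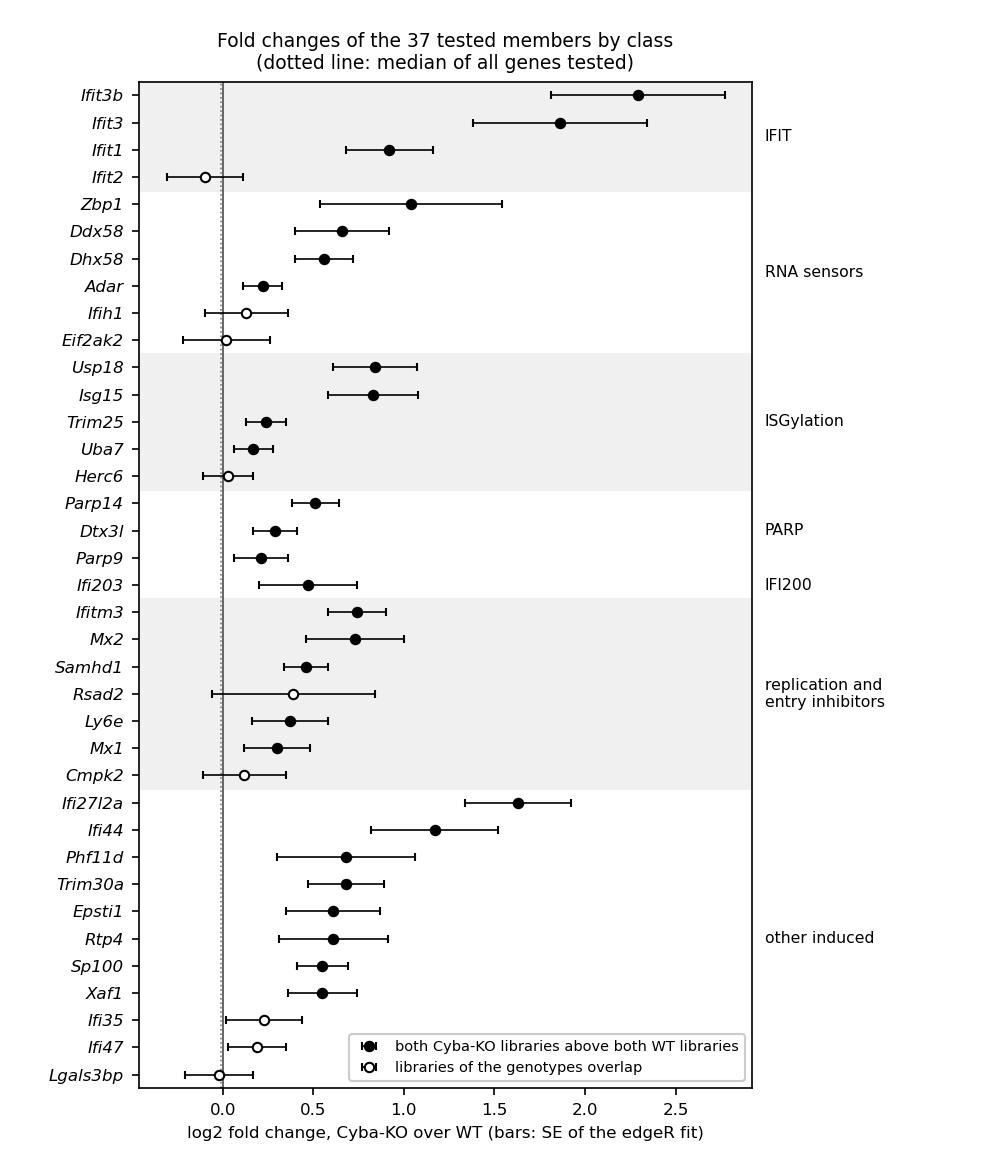
Log2 fold change of each tested member (Cyba-KO over WT) with its SE from the edgeR fit, by class, filled where both Cyba-KO libraries lay above both WT libraries and open where the genotypes overlapped. Of the 37 points 35 lie above 0, from -0.10 for Ifit2 to 2.29 for Ifit3b, which rests on 4 and 3 reads in WT libraries.

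The IFI200 class encodes proteins that bind DNA and includes sensors of foreign DNA. Ifi203 had 146 and 117 CPM in Cyba-KO libraries and 117 and 73.1 CPM in WT libraries, with Cyba-KO replicate 2 and WT replicate 1 nearly equal (log2 fold change 0.47, SE 0.27). Its log2 fold change was 0.86 without WT replicate 1 and 0.17 without WT replicate 2. For Ifi204 and for both Schlafen genes, Slfn2 and Slfn5, the reading of WT replicate 2 was not settled between readings 10-fold apart, so they stand outside the counts above. Their most probable readings were 416 and 362 reads in Cyba-KO libraries against 136 and 118 reads in WT libraries for Ifi204, a DNA sensor. For Slfn2, known to hold immune cells in a resting state, they were 1095 and 849 reads in Cyba-KO libraries against 491 and 291 reads in WT libraries. For Slfn5 they were 497 and 476 reads in Cyba-KO libraries against 282 and 225 reads in WT libraries. If these readings are taken, both Cyba-KO libraries lie above both WT libraries for all 3, with log2 fold changes of 1.63, 1.33 and 0.95 in the order named. None of the 3 passed the edgeR test at an adjusted p of 0.05 in that fit. In WT replicate 2, 4 lanes were damaged for Ifi204 and Slfn5, and 3 for Slfn2. With every damaged lane read 10-fold higher, that library would hold 1184 reads of Ifi204, 2045 of Slfn2 and 2254 of Slfn5, above both Cyba-KO libraries. For Slfn2 that reading would make the lanes disagree. Its library total was 115 reads with the damaged lanes read 10-fold lower, so its intact lane held no more than that. No direction is given for these genes, as their readings were not settled.

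The mice of each genotype also differed from each other, and many members ordered them alike in both genotypes. Replicate 1 was the higher library in both genotypes for 15 of 37 members (40.5%, and 38.2% of all tested genes), among them Zbp1, Ddx58, Ifi203, Ifitm3, Ly6e, Ifi27l2a, Ifi44, Trim30a and Sp100. Replicate 2 was the higher in both for another 15 (40.5%, and 37.7% of all tested genes), among them Ifit1, Ifit2, Ifit3, Ifih1, Eif2ak2, Isg15, Parp14, Rsad2 and Lgals3bp. The members thus held 2 patterns across mice on top of the difference between genotypes, in shares close to those of all tested genes.

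**Figure D4:**
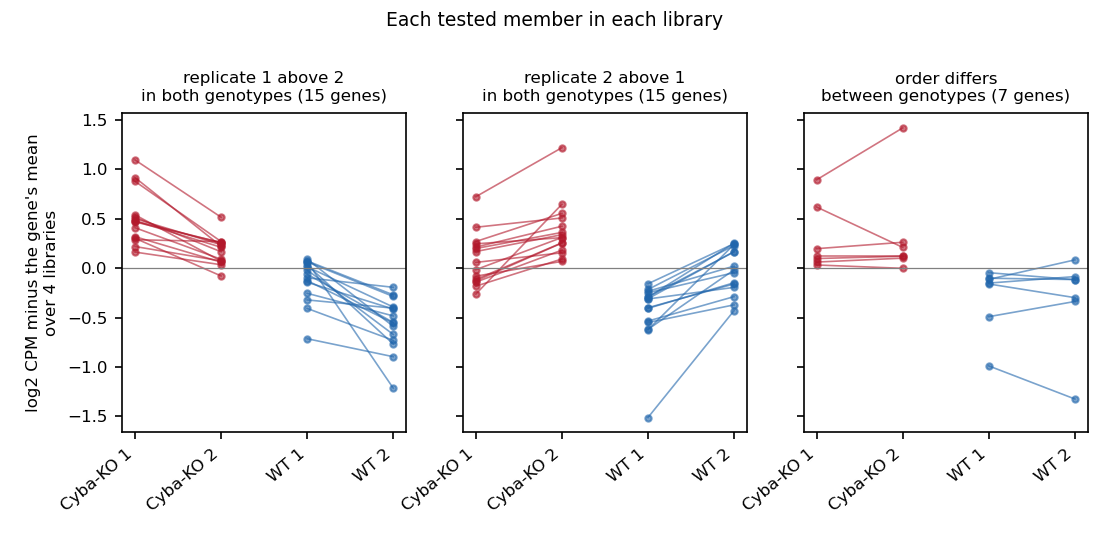
Log2 CPM of each of the 37 tested members minus its mean over the 4 libraries, with Cyba-KO in red and WT in blue, split by which replicate was higher. The panels hold 15, 15 and 7 genes, and lines join the libraries of 1 genotype.

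Other genes of the interferon system were read from lists by role. The oligoadenylate synthetases were listed with RNase L, the enzyme of their pathway that degrades RNA. Of these genes 7 were tested, all 7 had a log2 fold change above 0 and 0 passed the edgeR test. DESeq2 called 2 of them higher, where it called 0.197% of all genes with an adjusted p higher. Oas2 had 19.5 and 15.5 CPM in Cyba-KO libraries, against 5.52 and 3.97 CPM in WT libraries (log2 fold change 1.88, SE 0.27, adjusted p = 0.842 with edgeR and 9.84e-05 with DESeq2). Oas1g had 12.3 and 11 CPM in Cyba-KO libraries and 3.71 and 1.43 CPM in WT libraries (log2 fold change 2.17, SE 0.50, DESeq2 adjusted p = 0.0218). Oas1a had 44.1 and 33.7 CPM in Cyba-KO libraries, against 24.2 and 18.9 CPM in WT libraries (log2 fold change 0.85). The Oas1 genes are close copies of each other, so their split is uncertain.

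Receptors, JAK kinases, STATs and IRFs, the machinery that carries the signal, had 17 of 19 tested genes above 0 and a median log2 fold change of 0.27, with 0 passing the edgeR test. Irf7, the interferon-induced master factor of type I interferon genes, had 29.2 and 31.8 CPM in Cyba-KO libraries and 13.7 and 19.9 CPM in WT libraries (log2 fold change 0.86, SE 0.23, edgeR unadjusted p = 0.0152). Ifngr2, a chain of the interferon-gamma receptor, had 45.3 and 40.9 CPM in Cyba-KO libraries, against 31.4 and 26.5 CPM in WT libraries (log2 fold change 0.57). In both genes the Cyba-KO libraries lay above both WT libraries.

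The guanylate-binding and immunity-related GTPases had 11 of 11 tested genes above 0 and a median log2 fold change of 0.47, with 0 passing. Irgm2 had 16.8 and 13.6 CPM in Cyba-KO libraries and 9.57 and 7.81 CPM in WT libraries (log2 fold change 0.81, SE 0.22), and Gbp3 and Iigp1 had log2 fold changes of 0.53 and 0.78. For antigen presentation by MHC class I, 10 of 10 tested genes were above 0 with a median of 0.40, and Tapbp, H2-D1 and Tap1 had log2 fold changes of 0.34, 0.53 and 0.40. Adaptors and kinases of nucleic acid sensing had 8 of 10 above 0 and a median of 0.27, with Myd88, Tlr9 and Tlr7 at 0.31, 0.68 and 0.61. Of 7 feedback inhibitors 5 were above 0, with a median of 0.33, and Ptpn6, Ptpn1 and Socs1 were at 0.43, 0.33 and 0.59. Socs1 (SE 0.74) overlapped between genotypes, at 2.9 and 2.57 CPM in Cyba-KO libraries against 2.99 and 0.625 CPM in WT libraries. No gene of these 4 lists passed the edgeR test or DESeq2 at an adjusted p of 0.05.

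Of 11 interferon genes listed, 3 were matched here, and they had few or no reads. Ifnb1 and Ifnk each had 0 and 0 reads in Cyba-KO libraries and 0 and 1 reads in WT libraries. Ifng had 28 and 8 reads in Cyba-KO libraries, against 24 and 6 reads in WT libraries, so it was higher in replicate 1 of both genotypes and the genotypes overlapped. The other 8 interferon genes listed are not analysed here. A count of 0 allows up to 3 reads a library, so a difference in Ifnb1 or Ifnk was not detectable at this depth.

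Markers of cells that the depletion can leave also differed between the libraries, most evenly those of monocytes and macrophages. Monocyte and macrophage markers summed to 3540 and 3070 CPM in Cyba-KO libraries, against 2250 and 1610 CPM in WT libraries, with 12 of 12 above 0 and a median log2 fold change of 0.51. Both Cyba-KO libraries lay above both WT libraries for 8 of 12, where 17.6% of all tested genes did. For plasmacytoid dendritic cells, a main source of type I interferon, the sums were 288 and 263 CPM in Cyba-KO libraries and 268 and 189 CPM in WT libraries (10 of 10 above 0, both Cyba-KO libraries above for 5 of 10, median 0.55). Its defining marker Siglech overlapped between genotypes at 9.8 and 8.04 CPM against 9.7 and 3.48 CPM. Klk1, counted among the 10 and the 5, passed the expression filter only through the Cyba-KO libraries (17 and 22 reads, against 1 and 0 reads in WT libraries). Large parts of the sums came from Runx2 (99.5 and 94.8 CPM against 107 and 65.6 CPM) and Tcf4 (71 and 74 CPM against 75.3 and 67.1 CPM), which overlapped between genotypes. Neutrophil markers summed to 1140 and 4540 CPM in Cyba-KO libraries, against 480 and 1270 CPM in WT libraries (11 of 11 above 0, both Cyba-KO libraries above for 4 of 11, median 1.71), with replicate 2 the higher library in each genotype. The sums of the genotypes overlapped for neutrophils and for plasmacytoid dendritic cells. No marker passed the edgeR test. DESeq2 called 1 monocyte and macrophage marker and 1 neutrophil marker higher, where it called 0.197% of all genes with an adjusted p higher. These were Lyz2 (log2 fold change 1.33, DESeq2 adjusted p = 5.81e-07) and Itgam (log2 fold change 1.17, DESeq2 adjusted p = 0.00171). It called no marker of the other cell lists.

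B cell markers summed to 73.2 and 83.5 CPM in Cyba-KO libraries and 50.3 and 33.8 CPM in WT libraries (8 of 8 above 0, both Cyba-KO libraries above for 4 of 8, median 0.98). Over all tested genes, 17.6% had both Cyba-KO libraries above both WT libraries. T and NK cell markers summed to 281 and 156 CPM in Cyba-KO libraries and 186 and 78.8 CPM in WT libraries, overlapping (9 of 10 above 0, both Cyba-KO libraries above for 0 of 10, median 0.56). Nkg7 alone made up 240 and 137 CPM of the Cyba-KO sums and 154 and 66.6 CPM of the WT sums. Erythroid markers had fold changes the other way, at 651 and 1340 CPM in Cyba-KO libraries against 1150 and 2160 CPM in WT libraries (0 of 8 above 0, median -0.78). Their sums overlapped between genotypes, and both Cyba-KO libraries lay below both WT libraries for 0 of 8. Stem and progenitor markers summed to 1050 and 849 CPM in Cyba-KO libraries and 1060 and 767 CPM in WT libraries (6 of 10 above 0, median 0.07). No marker of these lists was at or under 3 reads in all 4 libraries. Bst2 in the dendritic cell list, Ly6c2 in the monocyte list and Ly6a in the progenitor list are themselves induced by interferon. The part of any cell type in the levels of the antiviral genes was not tested.

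**Figure D5:**
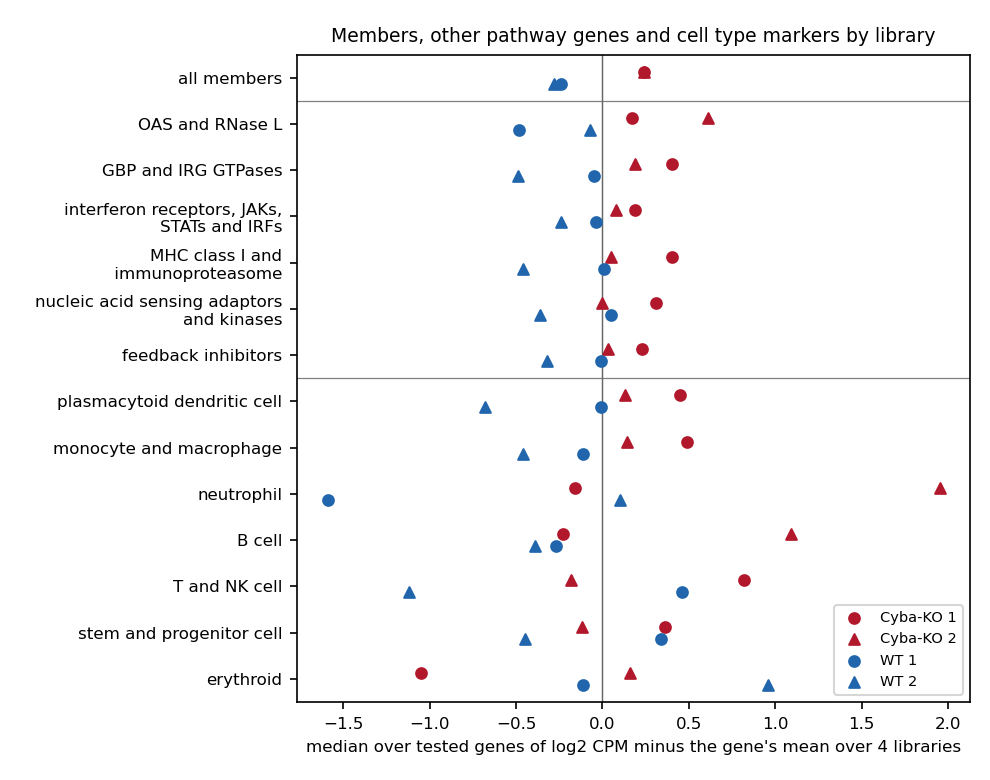
Median over the tested genes of each list of log2 CPM minus the gene's mean over the 4 libraries, with Cyba-KO in red and WT in blue and circles and triangles for replicates 1 and 2. The members lie at 0.24 and 0.24 in Cyba-KO libraries against -0.24 and -0.28 in WT libraries, and the neutrophil markers at -0.16 and 1.95 against -1.59 and 0.10.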

How the data were processed

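Total RNA of lineage-negative marrow from 4 mice was made into libraries with a TruSeq kit, per the labels' protocols. Per the submitters' processing notes, Salmon, DESeq2 and build GRCm38 were used, with versions and strand setting not given in the sources used here. The authors deposited estimated counts (expected counts per gene) and TPM for 4 lanes of each library. Their tables had lost decimal points: more than 1 reading was possible for 24.8% of 360320 count values and for 53.2% of the TPM values. Readings were weighed jointly per gene over lanes, TPM, gene length and libraries, and genes entered the analysis only where no library sum was expected to be wrong by more than 5% or 1 read. This held for 22001 of 22520 genes, 10830 of them with no damaged count. A repair with no tie between libraries kept 19888, and no gene kept both ways differed. Repaired lanes summed to 960872 to 968791 TPM.

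Lanes were summed and rounded. GENCODE vM21 (GRCm38) named 22357 identifiers. The test was edgeR 4.0.16 (R 4.3.3), quasi-likelihood, TMM, default expression filter, Benjamini-Hochberg adjustment over 13743 genes, two-sided, threshold 0.05. SE is the log2 fold change over the root of F. DESeq2 1.42.0 and limma 3.58.1 were alternatives, with the scalings, filters, left-out libraries and replicate block given in the closing part. On data simulated for this comparison, 21781 of 22001 genes were kept by the repair, 8 of them with a wrong total, and of changed genes 37 of 49 were kept at a fold of 0.1, 44 of 45 at 0.5, 51 of 52 at 2 and 53 of 54 at 10. The test called 40 of 40 changed genes at a fold of 0.1, 56 of 57 at 0.25, 54 of 55 at 4 and 48 of 48 at 10, and 12 other genes among 13743. These simulated counts gave every gene the same dispersion. In the real libraries the same test gave Cyba an adjusted p of 0.288, so the simulated shares do not show what it could detect here. Promoter windows came from RefSeq (GRCm38.p6), read with Python 3.11.15, and coding identity from GENCODE transcripts aligned with Biopython 1.88. Exonic bases shared with another gene reached 16.8% (Adar with Chrnb2, Ifi35 with Gm11626), 13.9% (Rtp4) and 13.7% (Herc6), and without a stated strand such reads cannot be told apart.

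The members, classes and lists were chosen with earlier results of these data known. All 40 members are accounted for, with values in every library for those with a log2 fold change of at least 0.6 or an unadjusted p under 0.05, the 5 most abundant and at least 1 per class. Of each pathway list up to 3 genes with the smallest p are named. A gene that this rule took is not reported here. Intervals and SE cover these 4 mice only.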

Additional observations from a re-analysis of the deposited data

How the results depend on the processing

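Between them, 152 summary values and 529 values of single members kept direction and side of the threshold over the alternatives, and 50 summary values moved. The members passing were 0 in every edgeR quasi-likelihood and limma setting without a block, and 1 (Ifi27l2a) with DESeq2 (adjusted p 0.0142) and with edgeR's likelihood ratio test (adjusted p 0.0204), where 27 and 29 genes passed in all.

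Replicate numbers are shared by the genotypes, but the labels do not say what they mark, so they were not taken as pairs. With a replicate block 1349 of 13743 tested genes passed, 864 higher and 485 lower. Of 37 tested members 17 passed, all higher: Ifit1, Ifit3, Ifit3b, Ddx58, Dhx58, Zbp1, Isg15, Usp18, Parp14, Ifi203, Samhd1, Ifitm3, Ifi27l2a, Ifi44, Trim30a, Epsti1 and Sp100. Deviations of same-numbered libraries correlated at 0.618 over all genes and 0.781 over the members, as a hint from the data and not the design.

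On log2(TPM + 1) 1 gene passed in all, 22 members were tested, 20 were above 0 and 15 had both Cyba-KO libraries above both WT libraries, with medians of 0.37 (members), 0.70 (IFIT), 0.24 (RNA sensors), 0.42 (ISG15 pathway), 0.25 (PARP), 0.50 (inhibitors) and 0.44 (other induced genes). With a pseudocount of 0.1 the counts were 1, 20 and 15 again and the medians 0.43 (members), 0.25 (RNA sensors), 0.46 (ISG15 pathway), 0.27 (PARP) and 0.51 (inhibitors). Eif2ak2 turned to 0.00 in both.

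With at least 10 reads in every library the IFIT median was 0.92, since Ifit3b left. Without the tie between libraries 26 members were tested, 18 had both Cyba-KO libraries above, and medians were 0.45 (members), 0.92 (IFIT) and 0.82 (ISG15 pathway). Over genes with no damaged count 12 members were tested, 11 above 0 and 7 with both Cyba-KO libraries above, with medians of 0.56 (members), 0.53 (RNA sensors), 0.81 (ISG15 pathway), 0.23 (inhibitors) and -0.12 for IFIT, where Ifit2 alone is left. Fewer members tested changes these counts by construction. With the unsettled readings kept, an alternative chosen after seeing the data, the median was 0.55 for members and 1.05 for IFI200.

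Leaving out 1 library at a time, where the lone library is assumed to vary like the rest, gave members' medians of 0.39 to 0.51, IFIT 1.13 to 1.58, ISG15 pathway 0.21 to 0.27, PARP 0.27 to 0.36, IFI200 0.17 to 0.86, inhibitors 0.41 to 0.54 and other induced genes 0.42 to 0.70. The members' and IFIT values include Ifit3b, which passed the expression filter only through the Cyba-KO libraries. With no library left out, the IFIT median including Ifit3b was 1.39. Without WT replicate 1 the IFI200 median was 0.86. Members above 0 ranged from 31 to 37. Single members that changed sign were Ifit2 (-0.28 to 0.12), Lgals3bp (-0.22 to 0.22), Ifih1 (-0.08 to 0.39), Eif2ak2 (-0.21 to 0.32), Rsad2 (-0.13 to 0.89), Cmpk2 (-0.08 to 0.37) and Herc6 (-0.06 to 0.13). Their reversals fell as follows: without Cyba-KO replicate 1, Ifit2 (0.05) and Lgals3bp (0.06), and without WT replicate 2, Ifit2 (0.12) and Lgals3bp (0.22); without Cyba-KO replicate 2, Ifih1 (-0.06), Eif2ak2 (-0.15), Rsad2 (-0.13) and Cmpk2 (-0.08), and without WT replicate 1, Ifih1 (-0.08), Eif2ak2 (-0.21), Herc6 (-0.06) and Cmpk2 (-0.08). Also Epsti1 (0.37 without Cyba-KO replicate 1, 0.88 without WT replicate 1), Ifi35 (0.04 without Cyba-KO replicate 1, 0.42 without WT replicate 1), Ifi47 (0.03 without WT replicate 2, 0.38 without WT replicate 1), Mx1 (0.13 without Cyba-KO replicate 2, 0.47 without Cyba-KO replicate 1), Parp9 (0.10 without WT replicate 1, 0.34 without WT replicate 2), Rtp4 (0.35 without WT replicate 1, 0.94 without WT replicate 2) moved by over 1.5 times with no change of sign. The cause was not tested. Precision is limited by 2 mice a group and, for Ifit3b and Ifit3, by few reads.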
